A study of Homo sapiens with 9 samples.

Results

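The genes described here are 35 named genes of the ATF4 pathway, amino acid supply and tRNA charging, read in IMR90 cells, a line of normal human fetal lung fibroblasts. They were taken from a list of symbols, matched by gene identifier to the count files, and all 35 were found among the 64253 gene identifiers. The 35 genes also passed the low-count filter, which left 16561 genes to test. By role they are 7 regulators and stress targets, 5 enzymes of serine, asparagine and one-carbon metabolism, 4 enzymes of proline synthesis and transsulfuration, 6 amino acid transporters and 13 genes of tRNA charging and tRNA export.

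There were 9 libraries in 3 groups of 3, lettered a, b and c. The control group carried the pLKO.1 lentiviral vector, which the sample labels call empty and the treatment protocol calls a GFP vector. The shRRM2 group carried pLKO.1 with a hairpin to RRM2, which encodes the small subunit of ribonucleotide reductase, the source of deoxyribonucleotides. The shRRM2/shp16 group carried that hairpin and a second one to p16, a CDKN2A product that blocks the cell cycle. Per the protocol, vector was given at both infections to control and at the second infection to shRRM2. The labels name a single hairpin for each target, mark the shRRM2 cells as senescent and mark the shRRM2/shp16 cells as a senescence bypass. A group with only the p16 hairpin was not analysed here, so the second hairpin could be read only on the RRM2-depleted background. All cells were at population doubling 30, grown in 2% oxygen, infected a second time 24 hours after the first and then kept in puromycin at 3 µg/mL for 7 days. Nothing in the labels shows that replicates came from separate cultures, so p-values measure the spread between these libraries, which may be technical.

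Gene counts ranged from 15770895 to 24873291 per library. Levels are given as CPM, the counts of a gene scaled to a common library size. RRM2 was at 485 ± 5.23, 62.1 ± 1.86 and 177 ± 3.00 CPM (mean ± SD, n = 3) in control, shRRM2 and shRRM2/shp16. RRM2 mRNA was thus lower in shRRM2 than in shRRM2/shp16, and each comparison of those groups carries that difference. Depth of knockdown and the state of the cells cannot be told apart as its source. CDKN2A was at 6.02 ± 0.113, 6.50 ± 0.464 and 4.28 ± 0.321 CPM in the same order, on 79 to 142 reads per library. These counts cover the whole gene, so p16 is not read apart from other CDKN2A products. The shRRM2/shp16 libraries differed from shRRM2 for CDKN2A (log2 fold change -0.60 ± 0.13 SE, edgeR adjusted p = 7.01e-05), while shRRM2 did not pass the threshold against control (adjusted p = 0.431). The 9 fibroblast markers summed to 27100 to 27960 CPM in control, 26450 to 27240 CPM in shRRM2 and 22800 to 23400 CPM in shRRM2/shp16. Of these, PDGFRA (3.80-fold) and COL3A1 (2.19-fold) were higher in shRRM2/shp16 than in shRRM2, COL1A1, COL1A2, VIM and THY1 were lower (56.2% to 92.3% of shRRM2), and PDGFRB, LUM and DCN did not pass the threshold. Against control, shRRM2 had COL1A1 and COL1A2, which made up most of each sum, higher (106% and 113% of control). COL3A1, VIM, THY1, PDGFRA, PDGFRB and DCN were lower there (61.2% to 96.2% of control), and LUM did not pass the threshold. Epithelial and blood markers summed to 1.13 to 2.93 CPM. The 4 endothelial markers summed to 2.56 to 3.35 CPM in control, 2.48 to 3.75 CPM in shRRM2 and 5.23 to 5.38 CPM in shRRM2/shp16. KDR was 2.70-fold higher in shRRM2/shp16 than in shRRM2 (edgeR adjusted p = 3.24e-07), with means of 3.58 and 1.32 CPM. The other markers did not move alike. From shRRM2 to shRRM2/shp16, PECAM1 went from 0.895 to 0.561 CPM, VWF from 0.889 to 1.17 CPM and CDH5 from 0.0191 to 0 CPM. The part of these shifts in the results was not tested. At 0 in every library were 1 of 4 epithelial, 0 of 4 endothelial and 1 of 3 blood markers. Reads in no annotated gene were 17.6% to 18.9% of uniquely aligned reads in control, 27.7% to 28.8% in shRRM2 and 23.5% to 24.4% in shRRM2/shp16, and their part in the results was not tested. The libraries are bulk samples, in which fewer cells of a type and less RNA per cell cannot be told apart.

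As background, ATF4 is a transcription factor of the integrated stress response. When a kinase such as GCN2 or PERK phosphorylates eIF2, general translation falls while the ATF4 message, which carries upstream open reading frames, is translated more. ATF4 then pairs with C/EBP proteins on composite C/EBP-ATF sites and drives genes for amino acid synthesis, amino acid uptake and the charging of tRNAs. Because ATF4 is controlled largely at translation, its mRNA level is not a measure of its protein, and no protein was measured here. Many of the target genes are also driven by other factors in growing cells.

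The composite site is the sequence through which ATF4 is known to act, and its core was looked for in the promoters of the 35 genes. The search string was TGATGNAA, read on both strands (TTNCATCA on the other), in RefSeq windows on GRCh38.p14 that run from 250 bases before to 50 bases after each transcription start. Of the 35 genes, 29 had a window in the table. PSPH, ALDH1L2, PYCR1, SLC7A11, LARS and YARS had none. The string was present in 13 of the 29 genes (44.8%), against 1217 of 27305 genes in the whole table (4.46%), and in 13 of 46 windows against 1270 of 35116 windows (3.62%). A gene with several starts has several windows and so more chances of a match, and a match describes letters, not binding. The genes were listed for the ATF4 pathway, so their higher share is no independent result. The 13 matches are shown 5′ to 3′ on the strand where the core reads TGATGNAA, with the core in capitals and up to 10 bases on each side.
ASNS: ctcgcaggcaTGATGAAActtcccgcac
SLC7A1: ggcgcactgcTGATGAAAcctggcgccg
GARS: gctcggagcaTGATGAAAtcgccgcgta
CEBPG: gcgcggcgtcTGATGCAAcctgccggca
CHAC1: ctggcaggagTGATGCAAcggcagggga
SLC1A5: aggaagtggcTGATGCAAgctgtccagg
AARS: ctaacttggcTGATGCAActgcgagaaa
NARS: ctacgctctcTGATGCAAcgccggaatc
TARS: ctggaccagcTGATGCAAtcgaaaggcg
IARS: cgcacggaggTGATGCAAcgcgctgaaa
MARS: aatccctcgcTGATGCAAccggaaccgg
CARS: tcctagaatcTGATGCAAccgccgcccc
SLC3A2: ggagcTGATGTAAggagtcctgc

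The core read TGATGAAA in ASNS, SLC7A1 and GARS, TGATGTAA in SLC3A2 and TGATGCAA in the other 9 genes. Positions are counted along the gene, with the start as 1 and the base before it as -1, and give the first base of the match. In ASNS, which encodes asparagine synthetase, it was at -68 (chr7:97872459-97872486, minus strand). CHAC1 held it at -209 on the opposite strand (chr15:40953252-40953279). The match was not in the first window listed for CEBPG and GARS, which have 2 each, or for SLC1A5, which has 3, and the windows listed before it held none. In SLC1A5 the matching window (chr19:46784765-46785064, minus strand) lies inside the gene, whose annotated start is at 46788594. The matching windows of SLC3A2 (chr11:62881449-62881748) and MARS (chr12:57487818-57488117) lie farther inside genes annotated to start at 62856102 and 57475445. Those of CEBPG, CHAC1, NARS and TARS also lie within the annotated gene, nearer its start. ASNS, SLC3A2, TARS and CARS also had windows without a match. In IARS, MARS and CARS it began at -13, -4 and -2, and in TARS, SLC7A1, NARS and SLC3A2 at 3, 8, 15 and 38.

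The matching windows of CHAC1, ASNS, SLC1A5, SLC7A1 and GARS are shown, since among the genes with a match these changed most between shRRM2/shp16 and shRRM2. Each run goes from 250 bases before the start to 30 bases after it, 5′ to 3′ in the direction of the gene, with the match in capitals.
ASNS: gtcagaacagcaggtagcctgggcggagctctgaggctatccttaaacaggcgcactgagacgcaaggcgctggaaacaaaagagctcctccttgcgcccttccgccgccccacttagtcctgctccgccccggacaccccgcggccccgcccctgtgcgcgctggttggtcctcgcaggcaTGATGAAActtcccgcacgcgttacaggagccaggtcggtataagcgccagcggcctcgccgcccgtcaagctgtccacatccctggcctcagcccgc
SLC1A5: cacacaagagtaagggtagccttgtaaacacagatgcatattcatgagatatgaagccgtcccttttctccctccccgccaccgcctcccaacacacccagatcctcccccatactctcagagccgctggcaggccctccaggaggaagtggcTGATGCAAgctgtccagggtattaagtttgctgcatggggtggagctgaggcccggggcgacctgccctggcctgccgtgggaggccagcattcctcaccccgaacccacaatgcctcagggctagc
CHAC1: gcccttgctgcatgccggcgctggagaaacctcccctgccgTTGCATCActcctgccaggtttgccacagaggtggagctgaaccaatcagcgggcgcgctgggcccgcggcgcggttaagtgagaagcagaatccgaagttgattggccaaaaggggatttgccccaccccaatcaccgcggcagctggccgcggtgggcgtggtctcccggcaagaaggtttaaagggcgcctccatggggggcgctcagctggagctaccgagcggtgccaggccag
SLC7A1: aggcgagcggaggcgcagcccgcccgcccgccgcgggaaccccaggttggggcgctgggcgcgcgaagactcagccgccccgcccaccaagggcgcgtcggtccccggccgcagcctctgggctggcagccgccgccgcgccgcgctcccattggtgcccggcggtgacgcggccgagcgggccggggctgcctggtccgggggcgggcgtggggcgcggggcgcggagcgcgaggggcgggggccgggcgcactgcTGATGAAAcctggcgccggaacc
GARS: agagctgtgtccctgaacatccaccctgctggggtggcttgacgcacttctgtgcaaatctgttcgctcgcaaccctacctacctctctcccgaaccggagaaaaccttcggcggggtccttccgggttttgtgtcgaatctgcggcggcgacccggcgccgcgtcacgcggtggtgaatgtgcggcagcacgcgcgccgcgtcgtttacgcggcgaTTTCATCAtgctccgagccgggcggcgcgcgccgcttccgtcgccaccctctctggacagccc

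These windows lie at chr7:97872379-97872658 (minus strand), chr19:46784785-46785064 (minus), chr15:40953221-40953500 (plus), chr13:29595659-29595938 (minus) and chr7:30594628-30594907 (plus).

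In the 3 shRRM2 libraries most of the 35 genes were below control. 22 were lower, 9 were higher and 4 did not pass an adjusted p of 0.05 in edgeR's quasi-likelihood test, with a median log2 fold change of -0.18. Among all 16561 genes 60.9% passed in this comparison, 31.8% lower and 29.0% higher, and the median was 0.0023. The count of 9 higher genes was 5 without control replicate c. With the p16 hairpin added, shRRM2/shp16 against shRRM2 gave 21 genes higher, 10 lower and 4 not past the threshold, with a median of 0.23. The background for that comparison was 61.1% of genes past the threshold, 31.9% higher and 29.1% lower, with a median of 0.0115. Between shRRM2/shp16 and control, 13 genes were higher, 16 lower and 6 not past the threshold, with a median of -0.028, against a background of 62.4%, 30.0% higher and 32.4% lower. With so many genes past the threshold, the number of members that passed is no result by itself. The same holds for groups that do not overlap, since most genes had such groups. In the 3 comparisons, in the order given, these were 10530, 10723 and 10956 of all 16561 genes, and 31, 31 and 27 of the 35. In the last comparison 48.1% of all genes past the threshold and 44.8% of the members past it were higher, and with library size alone, which moved the median of all genes to 0.12, these shares were 59.7% and 53.85%. The 3 comparisons share libraries, so that a low value in the shRRM2 group enters both the first and the second, and their values are set side by side.

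The genes with the ATF4 core in a promoter window were then set beside those without it there. Sites outside these windows were not looked for, so a gene without a match may still hold a site elsewhere. ASNS and SLC1A5 were higher in shRRM2/shp16 than in shRRM2, while CHAC1, SLC7A1 and GARS were lower, so genes with the same core moved in both directions. Of the 13 genes with a match, 8 were higher, 4 lower and 1 did not pass the threshold in that comparison, and their median was 0.23 on the log2 scale. Of the 16 genes with a window and no match, 10 were higher and 3 were lower, and the median was 0.29. In shRRM2 against control the counts were 2 higher and 10 lower of 13 with a match, and 5 higher and 8 lower of 16 without. These are descriptions of the 2 sets, and no difference between them was tested.

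**Figure D1:**
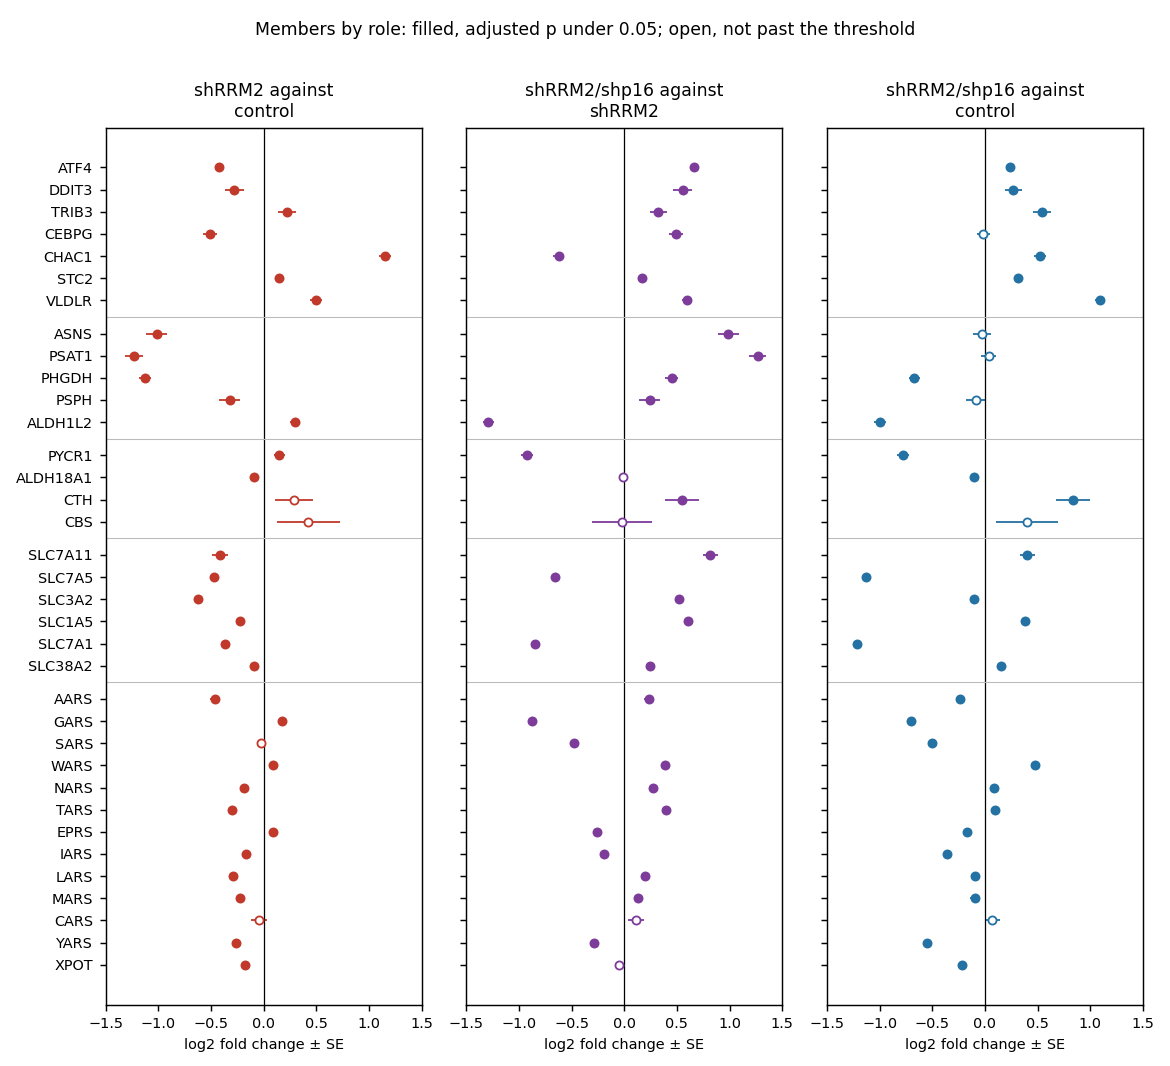
Log2 fold change ± SE of each of the 35 genes (rows, by role) in the 3 comparisons (panels), from edgeR on 3 libraries per group; filled points passed an adjusted p of 0.05 and open points did not. Amino acid transporters lie left of 0 in the first panel, and in the second panel ALDH1L2, PYCR1, GARS, SLC7A1, SLC7A5 and CHAC1 lie farthest left while PSAT1 and ASNS lie farthest right.

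ATF4 mRNA itself was lowest in shRRM2 and highest in shRRM2/shp16. The ATF4 gene (chr22:39519695-39522685 on GRCh38, plus strand) was read at 162, 160 and 157 CPM in control, 118, 118 and 122 CPM in shRRM2 and 192, 178 and 195 CPM in shRRM2/shp16. The 3 groups did not overlap. ATF4 fell to 74.7% of control in shRRM2 (log2 fold change -0.42 ± 0.036 SE, edgeR adjusted p = 9.57e-14). In shRRM2/shp16 it was 1.58-fold higher than in shRRM2 (log2 fold change 0.66 ± 0.035 SE, edgeR adjusted p = 1.71e-20) and 1.18-fold higher than in control (log2 fold change 0.24 ± 0.034 SE, edgeR adjusted p = 5.27e-08).

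CHAC1 took the other course. It encodes a glutathione-degrading enzyme and is widely used as a marker of the ATF4 and CHOP branch. Its level (chr15:40952962-40956519, plus strand) was 34.0, 29.7 and 35.4 CPM in control, 72.4, 77.4 and 70.4 CPM in shRRM2 and 51.8, 46.7 and 44.3 CPM in shRRM2/shp16. Every shRRM2 library was above every shRRM2/shp16 library, and these were above every control library. CHAC1 rose 2.22-fold in shRRM2 (log2 fold change 1.15 ± 0.056 SE, edgeR adjusted p = 1.07e-21), and in shRRM2/shp16 it was at 64.9% of the shRRM2 level (log2 fold change -0.62 ± 0.053 SE, edgeR adjusted p = 9.26e-14). Against control it stayed 1.44-fold higher (log2 fold change 0.52 ± 0.059 SE, edgeR adjusted p = 1.69e-10).

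DDIT3, which encodes the stress factor CHOP, had values of 13.2, 13.2 and 13.4 CPM in control, 9.97, 12.5 and 10.3 CPM in shRRM2 and 15.8, 15.4 and 16.9 CPM in shRRM2/shp16. One shRRM2 library, b, lay close to control, and the groups did not overlap. DDIT3 was lower in shRRM2 than in control (log2 fold change -0.28 ± 0.090 SE, edgeR adjusted p = 0.00679), a call that was lost without shRRM2 replicate a, where the log2 fold change was -0.22. It was 1.47-fold higher in shRRM2/shp16 than in shRRM2 (log2 fold change 0.55 ± 0.088 SE, edgeR adjusted p = 5.65e-07). In GENCODE release 29, DDIT3 shares 27.2% of its exonic bases with MARS on the opposite strand. Whether counting used strand is not given in the sources used here, so reads of the pair may not be fully separated.

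TRIB3, a pseudokinase that is induced by CHOP and ATF4 and restrains them, was at 10.9, 11.4 and 10.2 CPM in control, 12.5, 13.0 and 12.4 CPM in shRRM2 and 15.9, 16.6 and 14.9 CPM in shRRM2/shp16. The 3 groups were in a rising order with no overlap. In shRRM2/shp16 TRIB3 was 1.46-fold higher than in control (log2 fold change 0.54 ± 0.082 SE, edgeR adjusted p = 2.02e-07). Its rise in shRRM2 over control was small (log2 fold change 0.22 ± 0.088 SE, edgeR adjusted p = 0.0285) and missed the threshold without control replicate a (0.23), without control replicate c (0.17) and without shRRM2 replicate b (0.20). It also missed it under DESeq2 (0.23) and with no low-count filter (0.18). VLDLR, the very low density lipoprotein receptor and a known ATF4 target, followed the same order with 29.2, 27.8 and 27.6 CPM in control, 38.0, 39.6 and 42.1 CPM in shRRM2 and 57.6, 61.6 and 61.5 CPM in shRRM2/shp16. VLDLR was 1.41-fold higher in shRRM2 and 2.13-fold higher in shRRM2/shp16 than in control (log2 fold changes 0.50 ± 0.056 and 1.09 ± 0.052 SE, edgeR adjusted p = 2.46e-10 and 1.53e-22).

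STC2, a secreted glycoprotein induced by the unfolded protein response, was among the most abundant of the 35 genes at 405 ± 10.9, 448 ± 2.47 and 504 ± 9.32 CPM in control, shRRM2 and shRRM2/shp16. It rose in both hairpin groups by small amounts (log2 fold changes against control 0.15 ± 0.027 and 0.32 ± 0.027 SE, edgeR adjusted p = 1.06e-05 and 8.47e-14). CEBPG, a C/EBP partner of ATF4, was read at 30.1, 30.6 and 27.6 CPM in control, 20.0, 20.4 and 21.7 CPM in shRRM2 and 31.3, 27.3 and 28.9 CPM in shRRM2/shp16. The shRRM2 libraries lay below all others, while control and shRRM2/shp16 overlapped. CEBPG was at 70.2% of control in shRRM2 (log2 fold change -0.51 ± 0.067 SE, edgeR adjusted p = 1.09e-08), and between shRRM2/shp16 and control the 95% interval of its log2 fold change ran from -0.14 to 0.10 (adjusted p = 0.819). Of the 7 regulators and stress targets, 4 were higher and 3 lower in shRRM2 against control, 6 higher and 1 (CHAC1) lower in shRRM2/shp16 against shRRM2, and 6 higher and 0 lower in shRRM2/shp16 against control. Among all tested genes the shares in these comparisons were 29.0% higher and 31.8% lower, 31.9% and 29.1%, and 30.0% and 32.4%.

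**Figure D2:**
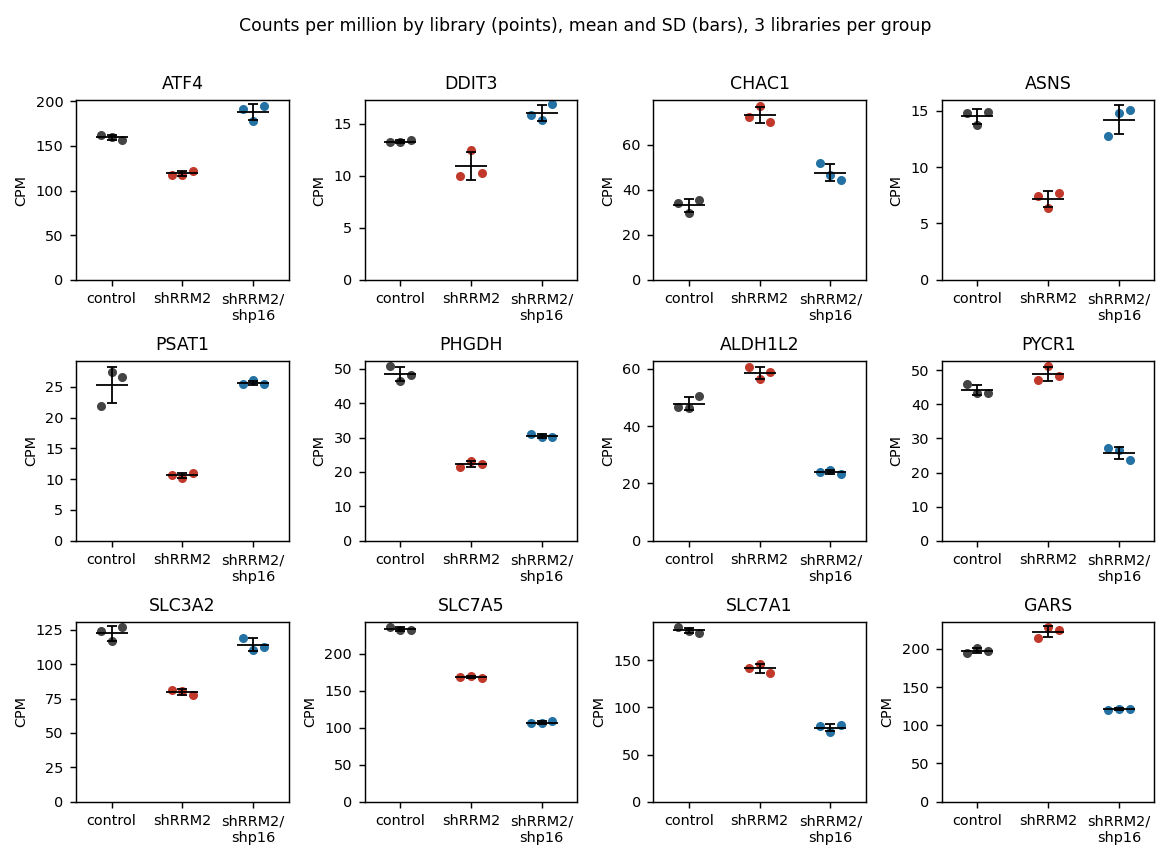
CPM of 12 of the genes in each library (points; bars, mean and SD of 3 libraries per group; linear axes from 0). ATF4, ASNS, PSAT1, PHGDH and SLC3A2 were lowest in shRRM2, CHAC1 was highest there, and SLC7A5 and SLC7A1 stepped down from control to shRRM2 to shRRM2/shp16.

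PSAT1, PHGDH and ASNS, enzymes that make serine and asparagine, had the largest decreases of the 35 genes in shRRM2 against control. PSAT1, the aminotransferase of the serine pathway (chr9:78297143-78330093), was read at 21.9, 27.3 and 26.6 CPM in control, 10.7, 10.3 and 11.1 CPM in shRRM2 and 25.5, 26.0 and 25.5 CPM in shRRM2/shp16. The shRRM2 libraries lay far below the rest, and the shRRM2/shp16 values lay inside the control range. PSAT1 fell to 42.6% of control (log2 fold change -1.23 ± 0.083 SE, edgeR adjusted p = 6.66e-17) and was 2.41-fold higher in shRRM2/shp16 than in shRRM2 (log2 fold change 1.27 ± 0.083 SE, edgeR adjusted p = 1.65e-17). Between shRRM2/shp16 and control its log2 fold change was 0.036 ± 0.069 SE, with a 95% interval from -0.100 to 0.17 (adjusted p = 0.671).

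ASNS, asparagine synthetase, which transfers the amide of glutamine to aspartate and whose promoter site is shown above, behaved alike. At chr7:97852118-97872542, it was read at 14.8, 13.8 and 14.9 CPM in control, 7.43, 6.40 and 7.69 CPM in shRRM2 and 12.8, 14.8 and 15.1 CPM in shRRM2/shp16. Again the shRRM2 group stood below the others, which overlapped. ASNS fell to 49.4% of control in shRRM2 (log2 fold change -1.02 ± 0.098 SE, edgeR adjusted p = 3.62e-12) and was 1.98-fold higher with the p16 hairpin (log2 fold change 0.99 ± 0.098 SE, edgeR adjusted p = 7.89e-12). Against control the interval for shRRM2/shp16 ran from -0.19 to 0.14 (adjusted p = 0.786). In GENCODE release 29 a same-strand transcript, AC079781.5, covers 44.6% of the exonic bases of ASNS. The counts hold no entry under its identifier in that release, so it could not be read.

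PHGDH, 3-phosphoglycerate dehydrogenase, which opens the serine pathway (chr1:119648411-119744226), was at 50.7, 46.5 and 48.1 CPM in control, 21.4, 23.1 and 22.3 CPM in shRRM2 and 31.1, 30.1 and 30.2 CPM in shRRM2/shp16. All 3 groups were separate, with shRRM2/shp16 between the others. PHGDH fell to 45.9% of control in shRRM2 (log2 fold change -1.12 ± 0.057 SE, edgeR adjusted p = 3.66e-21). In shRRM2/shp16 it was 1.37-fold above shRRM2 (log2 fold change 0.45 ± 0.061 SE, edgeR adjusted p = 2.23e-08) but still at 62.7% of control (log2 fold change -0.67 ± 0.053 SE, edgeR adjusted p = 4.82e-15). PSPH, the phosphatase of the last step, changed less, with 12.0 ± 1.01, 9.65 ± 1.06 and 11.4 ± 1.05 CPM in control, shRRM2 and shRRM2/shp16. Its log2 fold change was -0.32 ± 0.099 SE in shRRM2 against control (edgeR adjusted p = 0.00467) and 0.24 ± 0.10 SE in shRRM2/shp16 against shRRM2 (adjusted p = 0.0362). The first missed the threshold without control replicate a (-0.245) and without shRRM2 replicate c (-0.23), and the second without shRRM2 replicate c (0.15), without shRRM2/shp16 replicate a (0.17) and under DESeq2 (0.23).

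ALDH1L2, a mitochondrial folate enzyme that oxidises 10-formyl-tetrahydrofolate, was the exception of this group. The gene (chr12:105019784-105084577) was read at 46.7, 46.3 and 50.5 CPM in control, 60.6, 56.5 and 59.0 CPM in shRRM2 and 23.9, 24.6 and 23.3 CPM in shRRM2/shp16. The shRRM2 libraries were above control, and the shRRM2/shp16 libraries were far below both. ALDH1L2 rose 1.23-fold in shRRM2 (log2 fold change 0.30 ± 0.048 SE, edgeR adjusted p = 9.96e-07), and in shRRM2/shp16 it was at 40.8% of the shRRM2 level (log2 fold change -1.29 ± 0.054 SE, edgeR adjusted p = 1.99e-24), the largest change of the 35 genes in that comparison, and at 50.2% of control (log2 fold change -0.99 ± 0.055 SE, edgeR adjusted p = 2.97e-20). Summed over the 5 enzymes, the level was 145 to 152 CPM in control, 106 to 111 CPM in shRRM2 and 105 to 107 CPM in shRRM2/shp16. The sum thus stayed low in shRRM2/shp16 although PSAT1 was within the control range and ASNS did not pass the test against control. Of the 5, 4 were lower and 1 higher in shRRM2 against control, 4 higher and 1 lower in shRRM2/shp16 against shRRM2, and 0 higher and 2 lower in shRRM2/shp16 against control. The shares of all tested genes were 31.8% lower and 29.0% higher, 31.9% higher and 29.1% lower, and 30.0% higher and 32.4% lower.

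PYCR1, the mitochondrial reductase of the last step to proline (chr17:81932384-81942412), resembled ALDH1L2 in its levels, at 45.9, 43.4 and 43.3 CPM in control, 47.2, 51.3 and 48.4 CPM in shRRM2 and 27.2, 26.5 and 23.8 CPM in shRRM2/shp16. The shRRM2/shp16 libraries lay below all others. PYCR1 was at 52.7% of the shRRM2 level (log2 fold change -0.92 ± 0.057 SE, edgeR adjusted p = 1.83e-18) and 58.4% of control (log2 fold change -0.78 ± 0.056 SE, edgeR adjusted p = 3.98e-16). Its increase in shRRM2 over control (0.15 ± 0.052 SE, edgeR adjusted p = 0.014) missed the threshold without control replicate c and without shRRM2 replicate b, each at 0.12, and with no low-count filter (0.11). ALDH18A1, which makes the pyrroline-carboxylate precursor of proline, was at 121 ± 2.31, 113 ± 4.10 and 112 ± 2.17 CPM in the 3 groups.

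ALDH18A1 passed the threshold at -0.090 ± 0.036 SE in shRRM2 and -0.10 ± 0.036 SE in shRRM2/shp16, both against control (edgeR adjusted p = 0.0302 and 0.0107). The first call was lost without control replicate b (-0.089) or c (-0.085), without shRRM2 replicate a (-0.072) or b (-0.068) and under 5 other settings, and the second without shRRM2/shp16 replicate b (-0.089) or c (-0.087) and with library size alone (-0.0005). Between shRRM2/shp16 and shRRM2 its 95% interval ran from -0.086 to 0.058 (adjusted p = 0.756).

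CTH and CBS carry sulfur from homocysteine to cysteine. CTH had few reads, 35 to 109 per library, at 3.31, 2.52 and 2.09 CPM in control, 3.05, 3.11 and 3.73 CPM in shRRM2 and 4.54, 5.43 and 4.51 CPM in shRRM2/shp16. Control and shRRM2 overlapped, and the shRRM2/shp16 libraries were above both. CTH was 1.46-fold higher in shRRM2/shp16 than in shRRM2 (log2 fold change 0.55 ± 0.16 SE, edgeR adjusted p = 0.00286) and 1.79-fold higher than in control (log2 fold change 0.84 ± 0.16 SE, edgeR adjusted p = 1.56e-05). In shRRM2 against control it had a log2 fold change of 0.29 ± 0.18 SE (adjusted p = 0.158), which passed the threshold without control replicate a (0.52). CBS had 15 to 36 reads per library and passed in no comparison, with 95% intervals of -0.17 to 1.01, -0.58 to 0.54 and -0.17 to 0.98 for shRRM2 against control, shRRM2/shp16 against shRRM2 and shRRM2/shp16 against control. A near-identical copy of CBS had 0 to 2 reads per library, and reads that fit both were not counted, so its level is uncertain.

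All 6 amino acid transporters were lower in shRRM2 than in control, and with the p16 hairpin they parted, 4 being higher and 2 lower than in shRRM2. Among all tested genes 31.8% were lower in the first comparison, and 31.9% were higher and 29.1% lower in the second. SLC3A2 (CD98) is the heavy chain that brings several light chains to the cell surface. The gene (chr11:62856102-62888875) was read at 124, 116 and 127 CPM in control, 80.9, 80.5 and 77.2 CPM in shRRM2 and 119, 110 and 113 CPM in shRRM2/shp16. The shRRM2 libraries lay below the others. SLC3A2 fell to 64.9% of control in shRRM2 (log2 fold change -0.62 ± 0.040 SE, edgeR adjusted p = 1.56e-17) and was 1.43-fold higher in shRRM2/shp16 (log2 fold change 0.52 ± 0.041 SE, edgeR adjusted p = 5.90e-15). The small deficit left against control (-0.10 ± 0.038 SE, adjusted p = 0.016, overlapping groups) missed the threshold without control replicate a (-0.088) or c (-0.085) and without shRRM2/shp16 replicate b (-0.069) or c (-0.089). It also missed it with at least 10 counts in every library (-0.083), and was -0.0002 with library size alone.

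SLC7A5 (LAT1), the light chain that takes up leucine and other large neutral amino acids (chr16:87830023-87869488), was lower in each successive group, with 236, 231 and 233 CPM in control, 168, 170 and 167 CPM in shRRM2 and 106, 106 and 109 CPM in shRRM2/shp16. The 3 groups were far apart compared with their spread. SLC7A5 fell to 72.1% of control in shRRM2 (log2 fold change -0.47 ± 0.031 SE, edgeR adjusted p = 2.05e-17) and to 45.8% in shRRM2/shp16 (log2 fold change -1.13 ± 0.032 SE, edgeR adjusted p = 7.54e-31), and the step between the hairpin groups also passed (log2 fold change -0.65 ± 0.033 SE, edgeR adjusted p = 1.84e-21). SLC7A1 (CAT1), the arginine and lysine transporter (chr13:29509410-29595688), took the same steps at 185, 181 and 179 CPM in control, 141, 146 and 136 CPM in shRRM2 and 80.0, 74.2 and 81.0 CPM in shRRM2/shp16. It was at 77.7% of control in shRRM2 (log2 fold change -0.36 ± 0.035 SE, edgeR adjusted p = 3.73e-12) and at 43.1% in shRRM2/shp16 (log2 fold change -1.22 ± 0.037 SE, edgeR adjusted p = 1.21e-29), the largest change of the 35 genes in that comparison. The difference between shRRM2/shp16 and shRRM2 was -0.85 ± 0.038 SE (edgeR adjusted p = 3.15e-23).

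SLC7A11 (xCT), the light chain that imports cystine for glutathione synthesis, was at 17.7, 19.3 and 17.5 CPM in control, 14.6, 13.5 and 12.9 CPM in shRRM2 and 24.2, 24.7 and 23.1 CPM in shRRM2/shp16. The groups were separate, with shRRM2 lowest and shRRM2/shp16 highest. SLC7A11 fell to 75.1% of control in shRRM2 (log2 fold change -0.41 ± 0.078 SE, edgeR adjusted p = 1.39e-05). It was 1.76-fold higher in shRRM2/shp16 than in shRRM2 (log2 fold change 0.82 ± 0.075 SE, edgeR adjusted p = 6.45e-13) and 1.32-fold higher than in control (log2 fold change 0.40 ± 0.069 SE, edgeR adjusted p = 2.05e-06). SLC1A5 (ASCT2), which exchanges glutamine and other neutral amino acids, had the same order, with 206, 196 and 201 CPM in control, 173, 174 and 170 CPM in shRRM2 and 268, 262 and 255 CPM in shRRM2/shp16. Its log2 fold changes were -0.22 ± 0.032 SE in shRRM2 against control and 0.60 ± 0.031 SE in shRRM2/shp16 against shRRM2 (edgeR adjusted p = 7.11e-08 and 4.64e-21), and it was 1.30-fold above control in shRRM2/shp16. An antisense gene over 23.4% of the SLC1A5 exonic bases, AC008622.2, had 9 to 19 reads per library.

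SLC38A2 (SNAT2), a sodium-coupled carrier of small neutral amino acids, was the most abundant of the 35 genes by CPM and per exonic length. It was at 1194 ± 29.4, 1117 ± 27.7 and 1326 ± 34.6 CPM in control, shRRM2 and shRRM2/shp16. Its differences were small but larger than the spread, at -0.097 ± 0.026 SE, 0.25 ± 0.026 SE and 0.15 ± 0.026 SE for shRRM2 against control, shRRM2/shp16 against shRRM2 and shRRM2/shp16 against control (edgeR adjusted p = 0.00137, 2.78e-11 and 1.84e-06). The first missed the threshold with library size alone (-0.053). Of the 6 transporters, 3 (SLC7A11, SLC1A5 and SLC38A2) were above control in shRRM2/shp16 and 3 (SLC7A5, SLC7A1 and SLC3A2) below, against 30.0% and 32.4% of all tested genes.

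SLC7A5 and SLC7A11 both pair with SLC3A2, so their reads were set against those of the heavy chain in the same library, a ratio chosen after the values were seen. There were 1.90, 1.99 and 1.83 SLC7A5 reads per SLC3A2 read in control, 2.08, 2.11 and 2.16 in shRRM2 and 0.888, 0.963 and 0.963 in shRRM2/shp16. The shRRM2/shp16 ratios were thus below those of both other groups. For SLC7A11 the ratios were 0.143, 0.166 and 0.137, then 0.180, 0.168 and 0.166, then 0.203, 0.225 and 0.204. Each pair of groups was separate for both ratios, and an exact two-sided permutation test gave p = 0.1 for each of the 6 comparisons, and 0.1 after Benjamini-Hochberg adjustment. That is the smallest p that 3 libraries against 3 allow.

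Log2 fold changes of the tRNA charging genes ran from -0.47 to 0.17 in shRRM2 against control, and from -0.87 to 0.40 in shRRM2/shp16 against shRRM2. Aminoacyl-tRNA synthetases each join an amino acid to its tRNA, and the 12 studied here have cytosolic forms. The list of mitochondrial synthetases given below holds no separate gene for glycine, so GARS is not read as cytosolic alone. In shRRM2 against control 7 of the 12 were lower, 3 higher and 2 not past the threshold, with a median log2 fold change of -0.18. Between the hairpin groups 6 were higher in shRRM2/shp16, 5 lower and 1 not past the threshold, and the median was 0.12. Against control shRRM2/shp16 had 3 higher and 8 lower and a median of -0.14. Beside these counts, 29.0% of all tested genes were higher and 31.8% lower in the first comparison. The shares were 31.9% and 29.1% in the second, and 30.0% and 32.4% in the third. Together with XPOT, the exporter of tRNA from the nucleus, they summed to 1840 to 1901 CPM in control, 1692 to 1751 CPM in shRRM2 and 1615 to 1649 CPM in shRRM2/shp16.

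GARS, the glycyl-tRNA synthetase (chr7:30594681-30634033), had the largest change of the 12 synthetases in shRRM2/shp16, with 195, 201 and 197 CPM in control, 214, 228 and 224 CPM in shRRM2 and 120, 122 and 122 CPM in shRRM2/shp16. The shRRM2 libraries were above control and the shRRM2/shp16 libraries far below both. GARS rose to 113% of control in shRRM2 (log2 fold change 0.17 ± 0.031 SE, edgeR adjusted p = 8.16e-06), and in shRRM2/shp16 it was at 54.5% of the shRRM2 level (log2 fold change -0.87 ± 0.033 SE, edgeR adjusted p = 3.82e-26) and 61.4% of control (log2 fold change -0.70 ± 0.033 SE, edgeR adjusted p = 8.79e-23). SARS, the seryl-tRNA synthetase, was at 147, 137 and 139 CPM in control, 135, 143 and 137 CPM in shRRM2 and 105, 98.0 and 94.6 CPM in shRRM2/shp16. Control and shRRM2 overlapped (adjusted p = 0.561, interval -0.10 to 0.048), and the shRRM2/shp16 libraries lay below both, at 71.7% of shRRM2 (log2 fold change -0.48 ± 0.039 SE, edgeR adjusted p = 2.08e-14) and 70.4% of control.

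AARS, the alanyl-tRNA synthetase, fell most of the 12 in shRRM2. It was read at 120, 108 and 120 CPM in control, 84.9, 85.4 and 81.7 CPM in shRRM2 and 99.5, 95.4 and 101 CPM in shRRM2/shp16. The groups were separate, with shRRM2/shp16 in the middle. AARS was at 72.4% of control in shRRM2 (log2 fold change -0.47 ± 0.041 SE, edgeR adjusted p = 2.28e-13) and at 85.0% in shRRM2/shp16 (log2 fold change -0.23 ± 0.039 SE, edgeR adjusted p = 1.53e-06), and differed between the hairpin groups (log2 fold change 0.23 ± 0.042 SE, edgeR adjusted p = 5.69e-06). YARS (tyrosine) was lower in each successive group, at 109, 104 and 103 CPM in control, 83.2, 89.9 and 90.8 CPM in shRRM2 and 71.3, 72.1 and 72.9 CPM in shRRM2/shp16, which placed shRRM2/shp16 at 68.4% of control (log2 fold change -0.55 ± 0.040 SE, edgeR adjusted p = 4.99e-16). IARS (isoleucine) had the same order with smaller steps, at -0.17 ± 0.031 SE and -0.36 ± 0.031 SE against control.

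WARS, the tryptophanyl-tRNA synthetase, which interferon also induces, had the largest increase of the synthetases in shRRM2/shp16 against control, with 96.0, 91.6 and 93.7 CPM in control, 96.7, 97.5 and 105 CPM in shRRM2 and 131, 131 and 130 CPM in shRRM2/shp16. The shRRM2/shp16 libraries lay above all others. WARS was 1.39-fold higher in shRRM2/shp16 than in control (log2 fold change 0.48 ± 0.037 SE, edgeR adjusted p = 2.93e-15) and 1.31-fold higher than in shRRM2 (log2 fold change 0.39 ± 0.037 SE, edgeR adjusted p = 2.55e-12). Its difference between shRRM2 and control (0.089 ± 0.038 SE, adjusted p = 0.0441) missed the threshold without control replicate b (0.074) or c (0.079), without shRRM2 replicate c (0.056) and with no low-count filter (0.048). TARS (threonine) and NARS (asparagine) were lowest in shRRM2, at -0.30 ± 0.034 SE and -0.18 ± 0.035 SE against control, and 0.40 ± 0.034 SE and 0.27 ± 0.035 SE higher in shRRM2/shp16 than in shRRM2. Against control they ended slightly above, at 0.099 ± 0.032 SE and 0.087 ± 0.034 SE, with NARS short of the threshold without shRRM2/shp16 replicate c (0.084) and both short of it with no low-count filter (0.075 and 0.064).

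LARS (leucine) and MARS (methionine) were also lowest in shRRM2, at -0.29 ± 0.037 SE and -0.23 ± 0.039 SE against control (edgeR adjusted p = 3.85e-09 and 2.79e-06), and 0.20 ± 0.037 SE and 0.13 ± 0.039 SE higher in shRRM2/shp16 than in shRRM2. Against control, shRRM2/shp16 was called at -0.094 ± 0.036 SE and -0.099 ± 0.038 SE. Both calls were lost without control replicate a (-0.074 and -0.051), without shRRM2/shp16 replicate b (-0.073 and -0.083) and without shRRM2/shp16 replicate c (-0.078 and -0.066). They were also lost with DESeq2 (-0.092 and -0.096) and with at least 10 counts in every library (-0.0725 and -0.0772). The sign turned with library size alone (0.0101 and 0.0055).

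EPRS, which charges glutamate and proline tRNAs, was at 217 ± 0.665, 231 ± 3.35 and 193 ± 3.04 CPM in control, shRRM2 and shRRM2/shp16. It was above control in shRRM2 by 0.088 ± 0.030 SE (edgeR adjusted p = 0.0103), short of the threshold without control replicate c (0.077) and with no low-count filter (0.047). In shRRM2/shp16 it was below shRRM2 by a log2 fold change of -0.26 ± 0.030 SE (adjusted p = 4.74e-10). CARS (cysteine), with 264 to 450 reads per library, passed in no comparison of the edgeR test with TMM scaling. Its 95% intervals were -0.19 to 0.10, -0.033 to 0.26 and -0.072 to 0.21 for shRRM2 against control, shRRM2/shp16 against shRRM2 and shRRM2/shp16 against control. With library size alone CARS passed as higher in shRRM2/shp16, at 0.174 against shRRM2 and 0.175 against control (edgeR adjusted p = 0.0416 and 0.0339). XPOT was at 149 ± 5.75, 132 ± 3.45 and 128 ± 3.85 CPM and fell in both hairpin groups against control (-0.17 ± 0.036 SE and -0.22 ± 0.035 SE, edgeR adjusted p = 5.55e-05 and 7.63e-07), while the difference between those groups was -0.046 ± 0.036 SE (adjusted p = 0.281).

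Levels of different genes were compared as RPKM, which divides CPM by exonic length in kilobases. That length joins all annotated exons of a gene, whichever transcripts are present. Orders between genes depend on it, and the SDs do not cover it. In control SLC38A2 was highest at 181 ± 4.45 RPKM, followed by STC2 at 66.0 ± 1.78, ATF4 at 63.5 ± 0.966 and SLC1A5 at 60.3 ± 1.45 RPKM. STC2 and ATF4 lay close together. SLC7A5 and GARS, at 49.2 ± 0.510 and 47.6 ± 0.796 RPKM, were also neighbours. At the low end were CBS at 0.143 ± 0.00955, CTH at 1.09 ± 0.258, CARS at 1.87 ± 0.0365 and SLC7A11 at 1.88 ± 0.106 RPKM. CARS and SLC7A11 lay close by this measure, on 10037 and 9645 exonic bases. The authors' own level estimates placed CARS above SLC7A11 in shRRM2. The serine enzymes PSAT1, PHGDH and PSPH were at 11.6 ± 1.36, 5.25 ± 0.232 and 4.33 ± 0.367 RPKM in control. In shRRM2 the values were 4.88 ± 0.185, 2.42 ± 0.0943 and 3.49 ± 0.384 RPKM. Their order rests on the lengths used, 2188 bases for PSAT1 and 9217 for PHGDH. By CPM, PHGDH (48.4 ± 2.14) was above PSAT1 (25.3 ± 2.97) in control. The authors' own level estimates for shRRM2 also placed PHGDH above PSAT1.

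**Figure D3:**
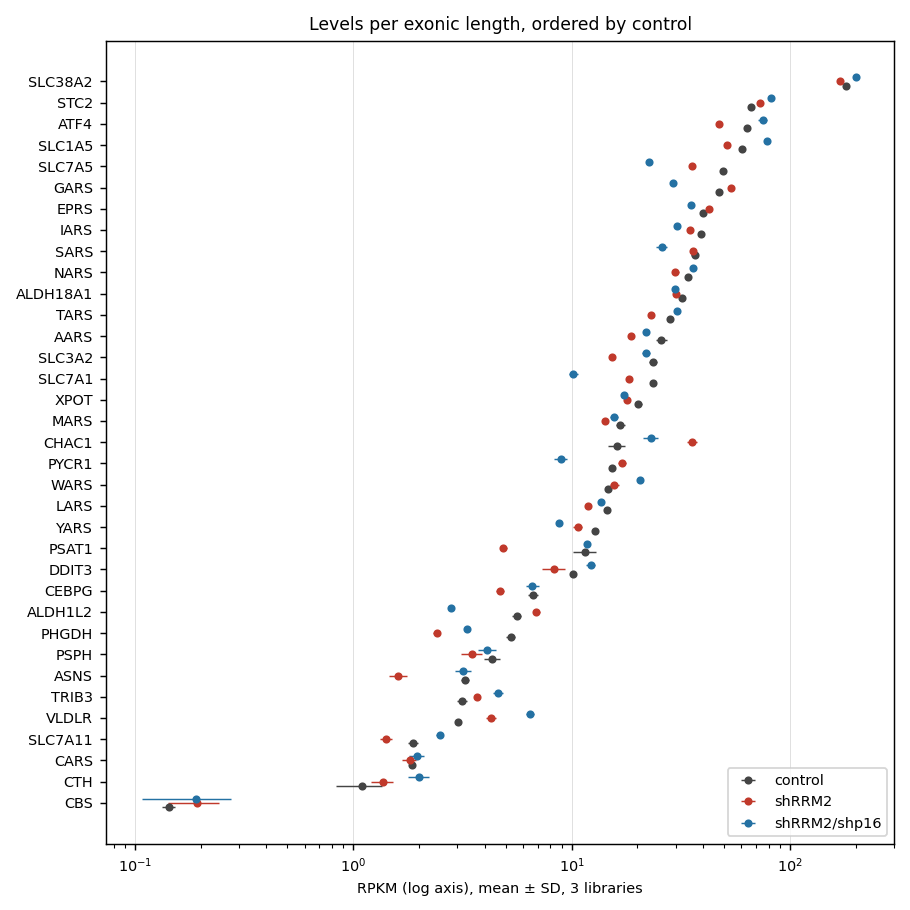
Level of each gene in RPKM (log axis; mean ± SD of 3 libraries per group), in the order of the control level, which depends on the exonic length used. SLC38A2 is at the top and CBS at the bottom, and the gaps between colours show PSAT1 and ASNS low in shRRM2, CHAC1 high in shRRM2, and SLC7A5, SLC7A1, GARS and ALDH1L2 low in shRRM2/shp16.

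Genes of the same pathways outside the 35 were counted in 7 further lists, with the 2 highest and 2 lowest log2 fold changes past the threshold named for each. Other ATF4 and stress response targets numbered 15, of which 14 were tested. Against control, shRRM2 had 4 higher and 6 lower (median -0.0032), with GDF15 (2.66), a secreted stress cytokine, and SESN2 (0.54), a sensor that restrains mTORC1, at the top and EIF4EBP1 (-0.73), a translation repressor, and SLC6A9 (-0.60), a glycine transporter, at the bottom. Between the hairpin groups 7 were higher in shRRM2/shp16 and 6 lower (median 0.13). CEBPB (1.72), a C/EBP factor, and DDIT4 (1.34), an mTORC1 inhibitor, led there, and JDP2 (-0.64) and ADM2 (-0.64) were lowest. Against control the p16 hairpin group had 5 higher and 4 lower (median 0.0025), from GDF15 (2.51) and CEBPB (1.93) to EIF4EBP1 (-0.98) and JDP2 (-0.66). The 4 lower became 2 without control replicate c, without shRRM2/shp16 replicate a or b, with library size alone and with DESeq2. GDF15 was at 14.8 ± 0.236, 93.6 ± 5.95 and 84.5 ± 0.704 CPM and CEBPB at 84.2 ± 2.39, 97.3 ± 5.27 and 321 ± 4.55 CPM in control, shRRM2 and shRRM2/shp16. The ADM2 call was lost without shRRM2 replicate b (-0.60) or c (-0.57), without shRRM2/shp16 replicate a (-0.50) or b (-0.63), and with the replicate block (-0.63). It was also lost with library size alone (-0.58), with DESeq2 (-0.65) and with no low-count filter (-0.62).

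The machinery upstream of ATF4 gave medians near 0. Of 15 genes of eIF2, its kinases, its exchange factor eIF2B and its phosphatases, 3 were higher and 7 lower in shRRM2 against control (median -0.073), 6 higher and 7 lower in shRRM2/shp16 against shRRM2 (median -0.072), and 4 higher and 7 lower in shRRM2/shp16 against control (median -0.077). The 7 lower in the second of these comparisons became 2 with library size alone. EIF2AK4, which encodes the uncharged-tRNA sensor GCN2, was at 169 ± 1.02, 208 ± 3.95 and 119 ± 0.867 CPM. It was among the highest in shRRM2 against control (0.30, with EIF2AK3, which encodes PERK, at 0.28) and the lowest in shRRM2/shp16 against shRRM2 (-0.81, followed by GCN1 (-0.23)). The eIF2B subunits EIF2B1 (-0.71) and EIF2B2 (-0.57) were lowest in shRRM2 against control. EIF2B2 (0.41) and the phosphatase subunit PPP1R15B (0.30) were highest in shRRM2/shp16 against shRRM2. Against control, shRRM2/shp16 ranged from EIF2AK3 (0.29) and PPP1R15B (0.15) to EIF2B1 (-0.57) and EIF2AK4 (-0.51).

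Other cytosolic synthetases and the scaffold of their complex (11 genes, 10 tested) were lower in the hairpin groups. In shRRM2 against control 0 were higher and 8 lower (median -0.26), led by AIMP2 (-0.65), a scaffold protein, and FARSA (-0.54), a phenylalanyl-tRNA synthetase subunit. In shRRM2/shp16 against control 0 were higher and 9 lower (median -0.24), led by FARSB (-0.86) and KARS (-0.31). Between shRRM2/shp16 and shRRM2 2 were higher, AIMP2 (0.44) and FARSA (0.30), and 2 lower, FARSB (-0.35) and HARS (-0.100). With library size alone 4 were higher and 1 lower there, and with no low-count filter 1 was lower. The 0 higher in shRRM2/shp16 against control became 1 with library size alone and without control replicate a. The HARS call was lost without shRRM2 replicate b or c (-0.095 each) and without shRRM2/shp16 replicate a (-0.087) or b (-0.072), so without either of the last the count of lower genes was 1. It was also lost with library size alone (-0.039) and with no low-count filter (-0.082).

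Mitochondrial synthetases (17 genes, 16 tested) had 2 higher and 11 lower in shRRM2 against control (median -0.25). Those higher were MARS2 (0.24) and RARS2 (0.21), and TARS2 (-0.65) was among the lower. With the p16 hairpin added 7 were higher than in shRRM2 (4 with DESeq2) and 4 lower (1 with library size alone; median 0.10), from MARS2 (0.74) and TARS2 (0.61) to CARS2 (-0.50) and RARS2 (-0.18). Against control shRRM2/shp16 had 1 higher, MARS2 (0.98), and 8 lower (median -0.13), led by CARS2 (-0.76), which became 4 higher and 5 lower with library size alone. The MARS2 call in shRRM2 against control was lost without control replicate c (0.17) and without shRRM2 replicate b (0.14), which left 1 higher gene, as did the fit with no low-count filter. RARS2 was short of the threshold in shRRM2/shp16 against shRRM2 with library size alone (-0.11).

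Other serine, glycine and folate enzymes (14 genes, 11 tested) were mostly lower in shRRM2, with 1 higher, AMT (0.64), and 8 lower (median -0.25). MTHFD1 (-0.91), the cytosolic folate enzyme, and GCSH (-0.80), of the glycine cleavage system, were lowest. From shRRM2 to shRRM2/shp16 3 were higher and 3 lower (median 0.032), with MTHFD2L (1.10) highest and MTHFD2 (-0.40) and SHMT1 (-0.36) lowest. Against control 3 were higher and 8 lower (median -0.38), from MTHFD2L (1.24) and AMT (0.57) to SHMT1 (-1.15) and MTHFD1 (-0.95). AMT was short of the threshold in shRRM2 against control without control replicate a (0.43) and without shRRM2 replicate c (0.51). In shRRM2/shp16 against control it was short without control replicate a (0.36) or c (0.54), without shRRM2/shp16 replicate b (0.45) and with DESeq2 (0.56). The count of 1 higher gene in shRRM2 became 2 without control replicate b or c, without shRRM2 replicate b, with library size alone, with no low-count filter and with at least 10 counts in every library. The 3 higher from shRRM2 to shRRM2/shp16 became 5 with library size alone.

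Other amino acid, methionine and glutathione enzymes (21 genes, 19 tested) split evenly in shRRM2 against control, 8 higher and 8 lower (median -0.057), and 5 were higher without shRRM2 replicate c and with no low-count filter. ASS1 (0.88), argininosuccinate synthase, was highest, and MTR (-0.88), methionine synthase, and MAT2A (-0.78), which makes S-adenosylmethionine, were lowest. Set against shRRM2, shRRM2/shp16 had 5 higher and 10 lower (median -0.14). ASL (1.67), the lyase that follows ASS1 in arginine synthesis, and MTR (0.76) were highest, and ASS1 (-1.25) was lowest. In shRRM2/shp16 against control 2 were higher, ASL (1.87) and GCLC (0.75), a glutathione synthesis subunit, and 13 lower (median -0.33), led by CHAC2 (-0.95) and BCAT1 (-0.61). ASS1 was at 6.23 ± 1.27, 11.5 ± 0.675 and 4.82 ± 0.152 CPM and ASL at 15.3 ± 1.26, 17.7 ± 1.95 and 56.3 ± 0.907 CPM in control, shRRM2 and shRRM2/shp16.

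Other amino acid transporters (18 genes, all tested) had 5 higher and 4 lower in shRRM2 against control (median 0.059). The ends were SLC1A1 (0.91) and SLC38A1 (0.54), and SLC38A5 (-1.18) and SLC1A4 (-0.70). Relative to shRRM2, shRRM2/shp16 had 6 higher and 6 lower (median 0.040), from SLC7A2 (1.99), a cationic amino acid transporter like SLC7A1, and SLC6A6 (0.75), the taurine transporter, to SLC7A8 (-1.12) and SLC16A10 (-1.10), both with few reads. Against control 7 were higher and 5 lower (median 0.039), from SLC7A2 (1.40) and SLC6A6 (0.78) to SLC7A8 (-1.26) and SLC1A4 (-0.92), and with library size alone 3 were lower. SLC7A2 was at 45.8 ± 1.23, 30.6 ± 0.178 and 121 ± 2.03 CPM in control, shRRM2 and shRRM2/shp16. SLC16A10 was short of the threshold without shRRM2/shp16 replicate a (-0.94) and with DESeq2 (-1.13).

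**Figure D4:**
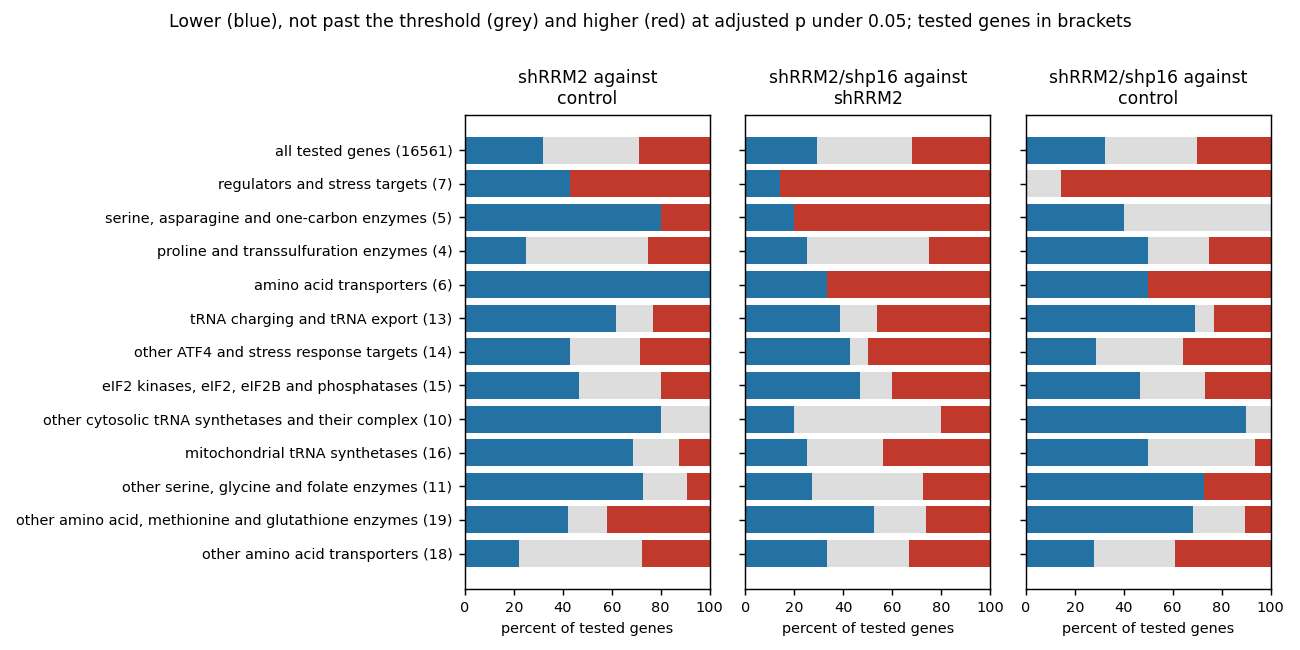
Share of tested genes (percent) that were lower (blue), not past an adjusted p of 0.05 (grey) or higher (red) in each comparison, for all tested genes, the 5 role groups of the 35 genes and the 7 further lists; the number tested is in brackets. All 6 transporters are blue in the first panel, and the regulators hold no blue in the third.

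The authors' deposited table gives its own comparison of shRRM2/shp16 with shRRM2. Of the 35 genes, 19 were significant there at a q of 0.05, 12 higher and 7 lower, and all 19 were also called from the counts. The 31 genes called from the counts had the same sign in the authors' deposited table. In the authors' deposited table the log2 fold change was 0.71 for ATF4, 1.25 for PSAT1, 0.96 for ASNS, 1.18 for SLC7A11, -1.37 for ALDH1L2, -1.16 for PYCR1 and -0.90 for GARS. The 12 genes called only from the counts, among them DDIT3, SLC1A5 and SLC38A2, had values of 0.54, 0.76 and 0.23 in the authors' deposited table. STC2, another of the 12, was at 0.030 with a q of 0.944 in the authors' deposited table, and at 0.17 from the counts. That table holds estimates from a different program on the same libraries and is no independent measurement.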

How the data were processed

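RNA was measured in 9 libraries of IMR90 cells, 3 per group, from total RNA depleted of ribosomal RNA in stranded libraries, per the labels' protocols. The authors deposited raw read counts per Ensembl gene, in the layout of HTSeq. TopHat2 2.0.9, Cufflinks 2.0.2, Cuffdiff and GRCh38 are listed in the submitters' processing notes, with no role stated. Neither the strand setting of the counting nor its annotation release is given in the sources used here. The authors' deposited table compares shRRM2/shp16 with shRRM2 and holds, per the file headers, log2 fold changes, p-values and q-values. Its 2 value columns per gene were taken as FPKM of the authors from the column layout, which no header states, and none is printed.

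Gene rows summed to 15770895 to 24873291 counts. Reads in no gene (17.6% to 28.8% of uniquely aligned reads), ambiguous reads (3.74% to 6.02%) and alignments that were not unique (40.4% to 44.9% of all tallied entries) entered neither library sizes nor tests. Counts cover amplified molecules without molecular identifiers. Chi-square values divided by their degrees of freedom were 1.41 to 2.70 between libraries of a group, above sampling noise.

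The test was edgeR 4.0.16's quasi-likelihood test, run in R 4.3.3. The filter filterByExpr left 16561 genes (99.8% of counts), libraries were scaled by TMM, and all 9 entered 1 quasi-likelihood fit with 6 residual degrees of freedom. Tests were two-sided, with Benjamini-Hochberg adjustment over all tested genes and a threshold of 0.05. CPM used TMM-scaled library sizes, and RPKM divided CPM by union exonic length in GENCODE release 29, which may differ from the authors' annotation. Intervals are 95%, from the fold change and its SE. The fit was tested on simulated data with known fold changes. Promoter windows came from RefSeq (GRCh38.p14).

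The members and lists were chosen with earlier results of these data known. All 35 members were named. From each further list the 2 highest and 2 lowest log2 fold changes past the threshold were named per comparison, except for 3 genes that are not reported here. Promoters were printed for at most 5 members with a match, by the size of the change between shRRM2/shp16 and shRRM2. Alternatives were RLE size factors, library size alone, no low-count filter, a minimum of 10 counts in each library, DESeq2 1.42.0, only the 6 libraries compared, a replicate block and leaving out each replicate.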

Additional observations from a re-analysis of the deposited data

How the results depend on the processing

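Of 1365 recomputed values of the 35 genes, 1286 kept their direction and their side of the threshold, 52 lost the call, 3 gained one and 24 changed sign. Of 1089 values of the genes picked by rule from the further lists and of the hairpin targets, 1063 kept both, 26 lost the call and 0 changed sign. Of 546 recomputed counts of the 7 further lists, 516 stayed within 1.5 times, and the 30 that did not are given beside their lists. The count of genes higher in shRRM2 against control was 9, and it was 5 with no low-count filter and 5 to 9 when 1 replicate was left out. All other counts of the 35 genes and of all tested genes, higher or lower, stayed within 1.5 times under every alternative run.

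Some log2 fold changes changed sign. With library size alone they were 0.018 for SARS and 0.0011 for CARS in shRRM2 against control, 0.046 for ALDH18A1, 0.0385 for CBS and 0.0146 for XPOT in shRRM2/shp16 against shRRM2, and 0.0865 for CEBPG, 0.0761 for ASNS, 0.0213 for PSPH, 0.0101 for LARS and 0.0055 for MARS in shRRM2/shp16 against control. LARS and MARS were the only ones of these called in the first place. With at least 10 counts in every library SARS was 0.005 and CEBPG 0.0038, and with no low-count filter ALDH18A1 was 0.0032. With each replicate left out in turn, values ranged from -0.0469 to 0.0107 for SARS and from -0.086 to 0.0147 for CARS in shRRM2 against control, and from -0.0301 to 0.0162 for ALDH18A1 and from -0.4154 to 0.2232 for CBS in shRRM2/shp16 against shRRM2. In shRRM2/shp16 against control they ranged from -0.0649 to 0.0392 for CEBPG, from -0.0614 to 0.0489 for ASNS and from -0.0659 to 0.1047 for PSAT1. The cause was not tested.

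With the replicate block the counts were 9 higher and 22 lower, 21 higher and 10 lower, and 13 higher and 16 lower in the 3 comparisons, as without it, and of the named genes ADM2 alone lost its call. Libraries with the same letter did not deviate together (correlations of -0.02 to 0.049 between groups), so the letters were not taken as pairs. Depth limits CBS (15 to 36 reads per library) and CTH (35 to 109 reads).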
